A study of Mus musculus with 42 samples.

Results

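The receptors described here are 35 intact mouse odorant receptors (ORs) that sit next to each other on chromosome 2. The rule that picks them uses names: every OR of the deposited tables numbered from Olfr1275 to Olfr1318 was taken, and Olfr1297 and all names marked as pseudogenes were left out. The rule was set with earlier results of these data known, and the excluded Olfr1297 is an intact receptor that responded to TMT, given below beside its neighbors. The receptors taken are 35 of the 1088 intact ORs counted in the pS6-IP-Seq tables and 35 of the 1087 in the table of dorsal and ventral mucosa. In pS6-IP-Seq an antibody against phosphorylated ribosomal protein S6, a mark that rises in neurons that have just fired, pulls down ribosomes with their mRNA, which is then sequenced. C57BL/6 mice (C57BL/6J in the study's methods) of postnatal day 20 to 22 were exposed for 1 h to acetophenone (ACT) at 0.01%, 0.1%, 1% or 100% v/v, to TMT, which is 2,5-dihydro-2,4,5-trimethylthiazoline, at the same concentrations, or to no odor, with 3 mice in each group and 1 olfactory epithelium per library. Each odorant has 1 set of 3 no odor mice for its 0.01% and 0.1% groups and a separate set for its 1% and 100% groups, which makes 4 groups of no odor mice and 36 libraries. Same-numbered mice of a set are littermates of 1 sex. For position in the nose, 3 libraries of total RNA from dorsal mucosa were set against 3 from ventral mucosa of mice of the same strain and age. The OR tables hold between 37012 and 128805 OR counts for a pS6-IP-Seq library and between 155319 and 242123 for a mucosa library. The first 0.1% TMT library carries a file name for 1% TMT in its GEO entry, while its odor label and its column give 0.1%, which was followed.

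ORs are G protein-coupled receptors of olfactory sensory neurons. Each neuron chooses 1 OR gene and, as a rule, 1 of its alleles, and a given OR is chosen only within a defined band of the epithelium, from dorsal to ventral. Class I ORs form a single cluster in the mouse genome and are mostly dorsal, whereas class II ORs, to which the chromosome 2 receptors belong, are spread over many clusters and over all bands. An odorant activates the neurons whose OR it binds, so an OR mRNA that is enriched in the pS6 pull-down marks a receptor whose neurons were activated. What follows for each OR mRNA is a bulk measurement: fewer neurons that choose an OR and less of its mRNA in each neuron cannot be told apart.

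The 35 receptors span 928.8 kb of chromosome 2, from 111230360 to 112159157 (GRCm38), 15 on the plus and 20 on the minus strand. By the MOR names that RefSeq lists as synonyms, 21 belong to family MOR245 and 14 to family MOR248. The families are not evenly laid out. The 13 receptors from Olfr1305 to Olfr1318 are all MOR245, those from Olfr1275 to Olfr1287 hold 5 MOR245 and 7 MOR248 genes, and those from Olfr1288 to Olfr1303 hold 3 MOR245 and 7 MOR248 genes. Coding sequences were 909 to 978 bases long. Coding identity between 2 receptors ran from 60.4 to 97.5% within a family (median 69.2%) and from 57.6 to 63.9% between the families (median 61.0%). The closest pairs were Olfr1282 and Olfr1286 at 97.5%, Olfr1306 and Olfr1307 at 96.9%, Olfr1283 and Olfr1287 at 96.7%, and Olfr1317 and Olfr1318 at 96.1%. In 7 of the 35 receptors over 10% of the 50-base stretches of the transcripts also occur in another OR, with 49.83% in Olfr1282, 31.3% in Olfr1287 and 25.58% in Olfr1283. Counts of these receptors depend on how RSEM shared out such reads and are uncertain to that extent.

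The sequence around the transcription start shows how receptors of 1 family differ along the stretch. The bases printed were chosen from Olfr1302, the 1 receptor of the 35 that passed as higher under TMT. In the window from 250 bases before to 50 bases after the GENCODE start, 7 MOR248 receptors, all between Olfr1290 and Olfr1302, have a 30-base stretch with at least 22 bases identical to that of Olfr1302. This stretch was picked after the values were seen, as the 30 bases around the TAATTA nearest the start of Olfr1302. Its place in the window varied. Relative to the annotated start, its middle lay at -130 in Olfr1302, -139 in Olfr1298, 0 in Olfr1301 and 20 in Olfr1294. Capitals mark the bases identical to those of Olfr1302 at the same place within the stretch (GRCm38, read 5′ to 3′ on the strand of the gene).
Olfr1290, chr2:111493927-111493956, minus strand: AGATGTTCAaGATAATTAtgTcCAactTTC
Olfr1294, chr2:111540257-111540286, minus strand: AGATGTcCAaGgcAATTAtTTctAGaGTTC
Olfr1295, chr2:111569709-111569738, minus strand: AGgTGTcCAaGATAATTAtTTTCAaGGgTt
Olfr1298, chr2:111649326-111649355, minus strand: AGATGTcCAtGATAATTAtTTcCAaaGTTC
Olfr1299, chr2:111661289-111661318, plus strand: AGATGTcCAaaATAATTAccTaCgGGGTTC
Olfr1301, chr2:111750991-111751020, plus strand: AtATGTcCAaGATAATTAcaTTtAGcGTTC
Olfr1302, chr2:111777284-111777313, plus strand: AGATGTTCAGGATAATTAATTTCAGGGTTC
The number of identical bases was 22 for Olfr1294, 24 for Olfr1298 and 23 for Olfr1290, Olfr1295, Olfr1299 and Olfr1301. Of the 1082 ORs with such a window, the only further one at 22 or more was Olfr1297, with 24, which lies within the same stretch (111615233 to 111626497, minus strand). The best match in any other OR had 20 identical bases, and the best among the remaining 28 receptors described here had 19. Among the 7, only Olfr1302 passed against its no odor mice, while Olfr1297 passed at every TMT concentration. A link between the 30 bases and an odor response was not tested. In 6 of the 7 the stretch holds TAATTA, a motif of the kind bound by homeodomain proteins such as Lhx2, which is required for the choice of most class II ORs. The stretch of Olfr1302 was centred on this motif, so its presence in the matches follows in part from how they were picked.

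Receptors at the distal end of the stretch carry the same motif in other surroundings, shown here with the motif in capitals for comparison.
Olfr1306, chr2:111916290-111916319, minus strand: tggaggtgtataTAATTAgcttcatatatt
Olfr1312, chr2:112050201-112050230, minus strand: ttgatgtgtacaTAATTAgcttcctctctc
Olfr1314, chr2:112096845-112096874, minus strand: tgctcactggtcTAATTAgcttcatatatt
The 11 bases TAATTAGCTTC occur in the windows of 4 of the 35 receptors (Olfr1306, Olfr1307, Olfr1312 and Olfr1314, all MOR245) and in 2 other ORs, on either strand. TAATTA, which reads the same on both strands, was in the windows of 15 of the 35 receptors (42.9%) and of 24.6% of the 1082 ORs with a window. TAATTG, searched on both strands, was in 8 windows (22.9%), against 32.5% of all ORs. The Olf1/Ebf-type motif CCCNNGGG was in 5 windows (14.3%, against 15.1% of all ORs), and TATAAA was in 13 (37.1%, against 33.5%). These matches describe letters in a window and not bound sites. In 30 windows at RefSeq starts of the receptors, 24 of them set at the coding start, TAATTA was in 8 (26.7%). For Olfr1282 and Olfr1287 the annotated start is the coding start, so their windows may not reach a promoter.

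Whether the receptors belong to dorsal or ventral mucosa was asked with the total RNA libraries. Of the 35 receptors, 31 were higher in ventral mucosa and 0 in dorsal mucosa (edgeR's quasi-likelihood test, Benjamini-Hochberg adjusted p below 0.05 over all 1087 ORs). Of all ORs 37.4% were higher in dorsal and 37.2% in ventral mucosa. None of the 35 was higher in dorsal mucosa under any alternative run, DESeq2's Wald test included. The median log2 fold change, dorsal over ventral, was -3.60 for the 35 receptors and -0.65 for all ORs. Among the other chromosome 2 receptors of the table, the 205 numbered from Olfr987 to Olfr1272, 75 were higher in dorsal and 84 in ventral mucosa, with a median of -0.78. The 35 receptors together took 0.114, 0.398 and 0.113% of the OR counts of the 3 dorsal libraries, against 2.22, 2.17 and 1.87% of those of the 3 ventral libraries. In 33 of the 35 every dorsal library was below every ventral library, which held for 49% of all ORs. The plot of dorsal and ventral normalized counts shows this separation for each receptor along the chromosome. Here a normalized count is a count over the TMM-adjusted size of its library, scaled to 181603 OR counts for the mucosa and 66805 for the pS6-IP-Seq libraries, so levels are not compared between those kinds of library.

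**Figure D1:**
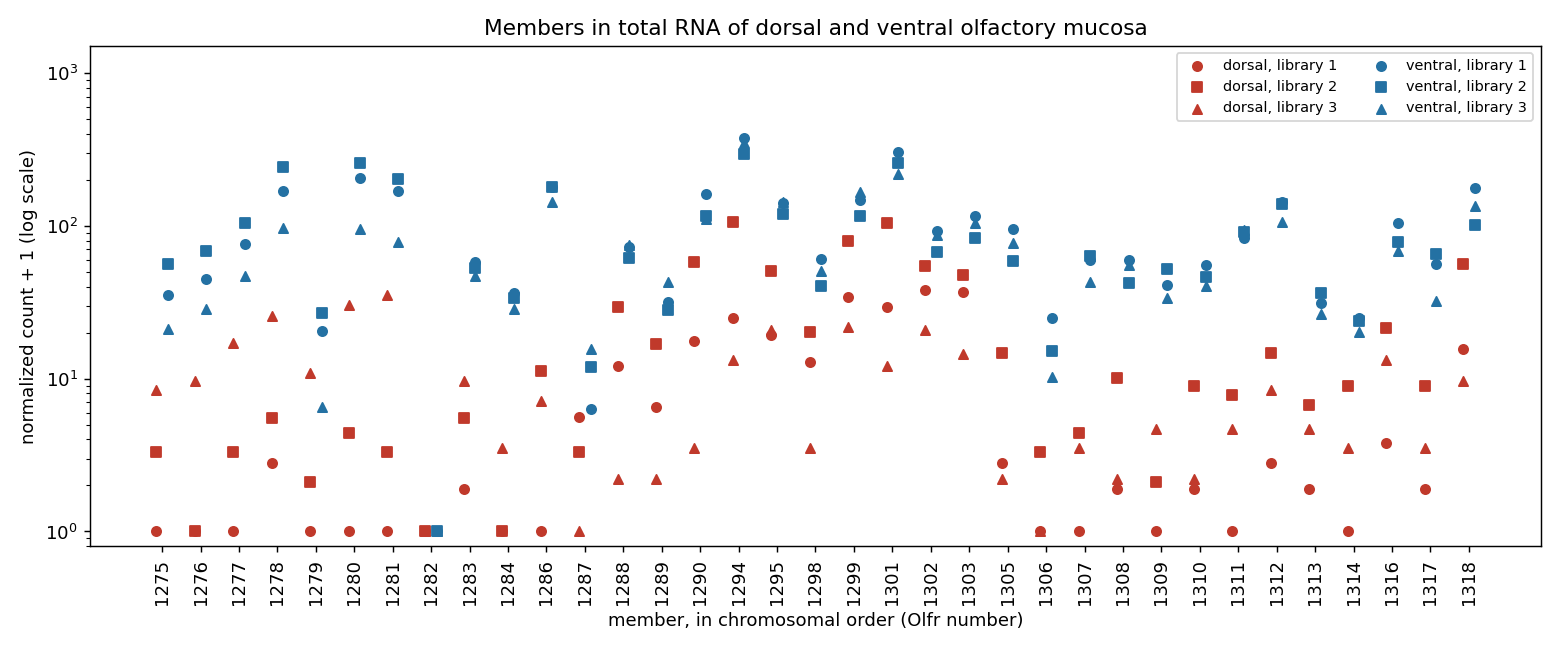
Normalized count (log axis, 1 added) of each of the 35 receptors, in chromosomal order, in the 3 dorsal and the 3 ventral libraries of total RNA, 1 point per library. In 33 receptors all dorsal points lie below all ventral points, and Olfr1282 has no counts in any of them.

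The largest differences were in Olfr1284, Olfr1286, Olfr1280 and Olfr1311. Olfr1284 (MOR245-13) had 0, 0 and 2.5 normalized counts in dorsal mucosa, against 35.3, 32.8 and 27.5 in ventral mucosa, with a log2 fold change of -5.28 ± 1.00 (SE) and an adjusted p of 4.85e-04. Olfr1286 (MOR248-21) had 0, 10.2 and 6.1 in dorsal mucosa, against 179.1, 177.3 and 140.9 in ventral mucosa (-5.18 ± 0.90, adjusted p = 2.71e-04). These are receptors whose mRNA was close to the limit of counting in dorsal mucosa. Olfr1280 (MOR248-1) had 0, 3.4 and 29.5 in dorsal mucosa, against 204.7, 257.0 and 94.3 in ventral mucosa (-4.98 ± 1.20, adjusted p = 0.00247). Library 3 was the highest of the dorsal and the lowest of the ventral ones, and without the libraries numbered 2 its adjusted p was 0.17. Olfr1311 (MOR245-21) had 0, 6.8 and 3.7 in dorsal mucosa, against 82.0, 90.6 and 92.4 in ventral mucosa (-4.86 ± 0.82, adjusted p = 2.31e-04). These folds rest on dorsal counts near 0 and moved with single libraries. With 1 replicate left out, Olfr1284 ran from -8.23 to -4.59 and Olfr1280 from -7.27 to -3.65, and without dorsal library 2 and the block Olfr1306 had the largest difference, at -7.10, with Olfr1284 at -4.77. The most abundant receptor in ventral mucosa was Olfr1294 (MOR248-7), with 46.8 ± 50.0 in dorsal and 337.3 ± 39.8 in ventral mucosa (SD, n = 3 each).

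The 4 receptors that did not pass were Olfr1279, Olfr1282, Olfr1287 and Olfr1302. Olfr1282 had no count in any mucosa library. Olfr1279 (log2 fold change -2.45, adjusted p = 0.0752) and Olfr1287 (-2.02, adjusted p = 0.104) were low in both mucosae, with means of 3.7 and 2.3 in dorsal and 16.9 and 10.3 in ventral mucosa. Olfr1302 was not low. It had 36.7, 53.2 and 19.7 normalized counts in dorsal mucosa, against 90.9, 66.4 and 86.0 in ventral mucosa, and its log2 fold change of -1.23 ± 0.59 was the smallest of the 34 receptors with counts (adjusted p = 0.0726). Its dorsal and ventral libraries did not overlap, and without the replicate number as a block its adjusted p was 0.0361. With dorsal library 2 left out as well, a fit chosen after the data were seen, it was 5.09e-04. Olfr1287 also passed in these fits, with adjusted p of 0.0437 and 0.0417, whereas Olfr1279 did not (0.0625 and 0.136).

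The differences were not of the same size along the stretch. The 13 receptors from Olfr1305 to Olfr1318, all of family MOR245, had a median log2 fold change of -4.00, with a range of -4.86 to -2.76. The 10 receptors from Olfr1288 to Olfr1303 had a median of -2.33 (-3.40 to -1.23), and the 11 with counts from Olfr1275 to Olfr1287 had a median of -4.34 (-5.28 to -2.02). Within family MOR248, the 7 receptors with the 30-base stretch printed above had a median of -2.32, and the 6 others with counts had -4.46. All 7 lie between Olfr1288 and Olfr1303, so within the family the stretch and the position cannot be told apart, and the 3 MOR245 receptors there, which lack it, were at -2.72 (Olfr1288), -2.35 (Olfr1289) and -1.77 (Olfr1303). These divisions were made after the values were seen and carry no test. Neighbors were high or low in the same libraries. How often each library was the highest over all ORs was not counted, so the pattern is not shown to be particular to these receptors. Dorsal library 2 was the highest dorsal library in 10 of 10 receptors from Olfr1288 to Olfr1303, whose summed normalized counts were 220.9, 554.7 and 104.6 in dorsal libraries 1 to 3, against 1492.0, 1176.4 and 1331.5 in the ventral ones. It was also the highest in 12 of 13 from Olfr1305 to Olfr1318, with sums of 24.7, 155.2 and 50.5 in dorsal libraries, against 942.0, 800.1 and 726.6 in ventral libraries. From Olfr1275 to Olfr1287 dorsal library 3 was instead the highest in 9 of 11, with sums of 7.3, 32.9 and 147.5 in dorsal libraries, against 991.6, 1225.7 and 595.0 in ventral libraries. With dorsal library 2 left out and no block, a fit chosen after the data were seen, 32 receptors were higher in ventral mucosa, and the medians were -3.55 for Olfr1275 to Olfr1287, -2.98 for Olfr1288 to Olfr1303 and -4.90 for Olfr1305 to Olfr1318. In that fit the MOR248 receptors with and without the 30-base stretch had medians of -2.80 and -3.47, a smaller gap. The plot of fold change by position shows the smaller differences in the middle of the stretch.

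**Figure D2:**
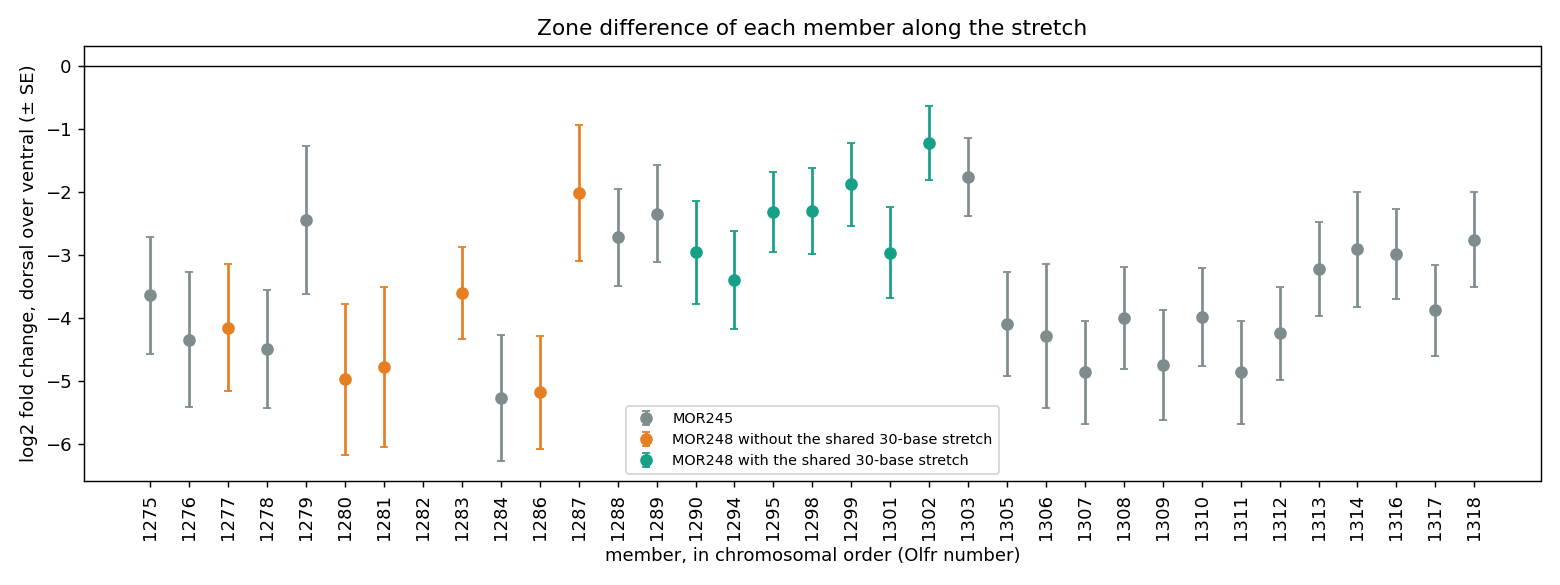
Log2 fold change, dorsal over ventral mucosa, with its SE for each of the 34 receptors with counts, in chromosomal order and coloured by family and by whether a MOR248 receptor has the shared 30-base stretch. All values are below 0, and those from Olfr1288 to Olfr1303 lie between -3.40 and -1.23.

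In the pS6-IP-Seq libraries, which come from the whole olfactory epithelium, the 35 receptors are 3.22% of the ORs and took 0.983 to 1.94% of the OR counts (median 1.44%). Every receptor was detected. The highest totals over the 36 libraries were 3428 counts for Olfr1301, 2849 for Olfr1294, 2804 for Olfr1281, 2528 for Olfr1318 and 2402 for Olfr1283, and the lowest were 42 for Olfr1282 and 60 for Olfr1287, both with the largest shares of transcript shared with other ORs. Without odor, mean normalized counts over the 12 mice ran from 1.38 for Olfr1287 to 92.09 for Olfr1301. Per kilobase of exon the order was led by Olfr1283 at 44.43, Olfr1294 at 36.26 and Olfr1299 at 23.65 normalized counts per kb. Exon lengths were those of all GENCODE exons merged, from 918 to 15582 bases, not those of the authors' annotation. The order per kilobase therefore depends on the gene models. The order of the mean no odor levels followed that of the mean levels in ventral total RNA in part, with a Spearman rho of 0.73 across the 35 genes, which share gene length between the measurements and are not independent replicates. The largest departures were Olfr1283, at rank 2 in the pull-down and rank 20 in ventral mucosa, Olfr1286, at ranks 24 and 5, and Olfr1276, at ranks 8 and 25. The rank of Olfr1276 in the pull-down depends on 1 group of no odor mice. Its mean was 112.7 in those of the low TMT set, against 30.3 for low ACT, 25.3 for high ACT and 11.1 for high TMT.

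Which of the receptors respond to an odor was asked by setting each exposed group against its own no odor mice. Under ACT none of the 35 passed the test at any concentration. The share of all 1088 ORs that passed as higher was 0% at 0.01% ACT, 0.643% at 0.1%, 1.38% at 1% and 0% at 100%. The share that passed as lower was 0.276% at 1% ACT and 0% at the other concentrations. These shares move with the fit. At 100% ACT the number of all ORs that passed in either direction was 0 in the fit used here and 87 without the mice numbered 1. At 1% ACT it was 18 in the fit used here and 0 without the mice numbered 2. The study's own edgeR comparisons found ORs enriched at 0.01% ACT and more of them at 100% ACT, where the fit used here called none. Having no call among the 35 under ACT therefore does not show that none of them responds. At an unadjusted p below 0.05, 2, 2, 2 and 1 of the 35 receptors remained from the lowest to the highest ACT concentration, against 2.57, 3.49, 7.35 and 14.2% of all ORs. DESeq2's Wald test called none of the 35 under ACT, and edgeR's likelihood ratio test called 1 (Olfr1282 at 100% ACT). Under TMT, 1 receptor fell at 0.01% and 1 at 0.1%, while 0.0919% and 0.643% of all ORs were lower at these concentrations and 0.368% and 1.38% were higher. At 1% TMT 1 receptor rose and none fell (4.69% of ORs higher, 0.184% lower). At 100% TMT 1 rose and 1 fell, that is 2.86% of the receptors in each direction, against 11.6% of all ORs higher and 3.31% lower. The median log2 fold changes of the 35 receptors stayed small, at -0.04, -0.03, 0.11 and -0.26 from 0.01% to 100% ACT and -0.14, -0.09, 0.12 and -0.36 from 0.01% to 100% TMT. Those of all ORs were 0.02, 0.01, 0.02 and 0 for ACT and 0, 0, -0.05 and -0.08 for TMT. The calls came from 3 receptors, Olfr1302, Olfr1276 and Olfr1283, which are marked by asterisks in the heat map of responses. Some other receptors had log2 fold changes as large that did not pass.

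**Figure D3:**
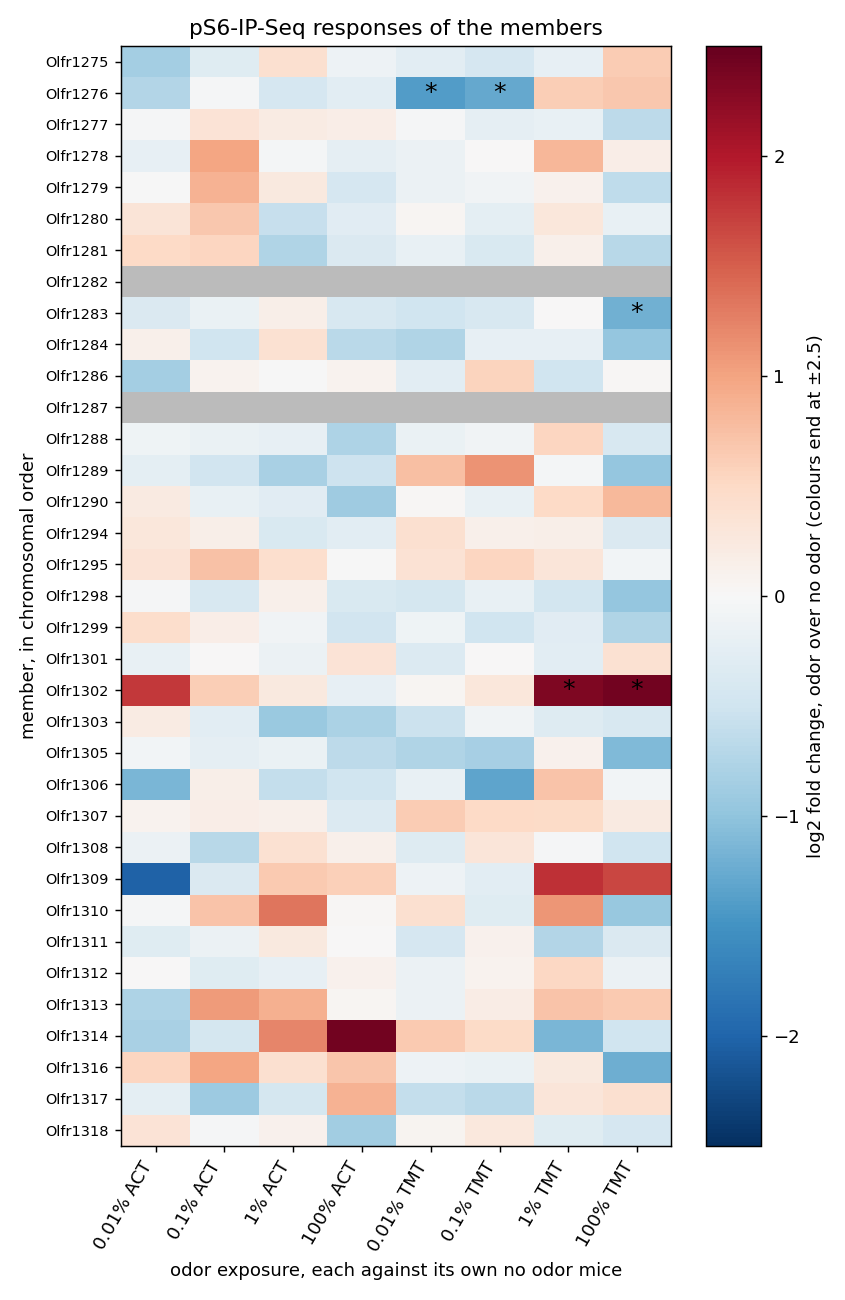
Log2 fold change in pS6-IP-Seq of each of the 35 receptors (rows, in chromosomal order) under each odor exposure (columns), odor over its own no odor mice, with asterisks at adjusted p below 0.05 and grey rows where under 100 counts were found over all libraries. Asterisks stand at Olfr1302 for 1% and 100% TMT, at Olfr1276 for 0.01% and 0.1% TMT and at Olfr1283 for 100% TMT.

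Olfr1302 (MOR248-3, ENSMUSG00000044560.3, chromosome 2, 111777429 to 111782700, plus strand) was the receptor that rose under TMT. It had 73.2, 61.9 and 76.0 normalized counts at 1% TMT, against 7.1, 18.7 and 16.2 without odor. Each exposed library was above each no odor library, with means of 70.4 ± 7.5 at 1% TMT and 14 ± 6.1 without odor (SD, n = 3 each). The log2 fold change was 2.33 ± 0.39 (SE), with an adjusted p of 8.16e-08. At 100% TMT it had 51.0, 80.4 and 96.3, against the same 3 no odor mice (2.41 ± 0.42, adjusted p = 2.09e-07). At the lower concentrations it had 22.4, 8.2 and 12.2 at 0.01% TMT and 22.5, 17.9 and 9.5 at 0.1% TMT, against 19.7, 7.9 and 13.0 without odor. These groups overlapped, and the log2 fold changes of 0.05 ± 0.52 and 0.29 ± 0.50 did not pass (adjusted p = 1 and 0.997). Between 100% and 1% TMT the log2 difference in the joint fit of the TMT libraries was 0.10 ± 0.34 (adjusted p = 0.947). Both calls remained under each of the 9 alternative settings, each replicate left out included. Only 0.51% of the 50-base stretches of Olfr1302 transcripts occur in another OR.

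Under ACT, Olfr1302 did not pass at any concentration, and single libraries stood high. It had 108.6, 23.8 and 18.2 normalized counts at 0.01% ACT, against 17.8, 9.0 and 8.0 without odor (log2 fold change 1.78 ± 0.44, unadjusted p = 0.00571, adjusted p = 1), the smallest unadjusted p of the 35 receptors in that comparison. At 0.1% ACT it had 9.6, 36 and 11.7. It had 140.6, 20.8 and 5.0 at 1% ACT and 36.9, 21.1 and 12.9 at 100% ACT, against 16.1, 29 and 30.5 without odor. The high values at 0.01% and 1% ACT were in the first mouse of each group. In those mice the nearby Olfr1297 was also high, at 126.0 and 403.7 normalized counts, against 56.9 and 65.6 in the other mice at 0.01% ACT and 57.3 and 36.9 in the other mice at 1% ACT. The difference between odorants, ACT response minus TMT response, was -2.11 at 1% (unadjusted p = 0.0435, adjusted p = 1) and -2.92 at 100% (unadjusted p = 0.0069, adjusted p = 0.226), so it did not pass. No other of the 35 receptors passed with all mice included, and 0% of all ORs passed at either concentration. Without the mice numbered 1 it was -3.24 at 1% (adjusted p = 0.00999) and -3.16 at 100% (adjusted p = 0.00784), where 2.3 and 5.61% of all ORs passed. Olfr1297 passed at every TMT concentration, with log2 fold changes of 2.19, 3.07, 2.72 and 2.65 from 0.01% to 100% TMT.

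Olfr1276 (MOR245-10, ENSMUSG00000063844.5, chromosome 2, 111254516 to 111262026, plus strand) was lower in both low TMT groups. It had 83.6, 30.2 and 26.1 normalized counts at 0.01% TMT and 94.7, 16.9 and 42.6 at 0.1% TMT, against 155.1, 76.0 and 107.1 in the no odor mice that both groups share. In each of the 3 litters both exposed mice were below the no odor mouse, while the groups as a whole overlapped. The log2 fold change was -1.40 ± 0.29 at 0.01% TMT (adjusted p = 6.51e-04) and -1.29 ± 0.26 at 0.1% TMT (adjusted p = 7.39e-05). The no odor mice of this set were themselves high. In the other 9 no odor libraries Olfr1276 ran from 4.3 to 56.1, with a median of 18.9, all below the lowest of the 3. Of the receptors beside it, Olfr1277 had 15.7 to 26 and Olfr1278 17.5 to 26 in those mice. Olfr1275, on the other side, had 5.4 to 38.4 (median 28.9) in those mice and 1.6 to 34 (median 14) in the other 9, so its ranges overlapped. At the higher concentrations Olfr1276 had 12.5, 20.1 and 16 at 1% TMT and 23.4, 13.9 and 14.6 at 100% TMT, against 19.3, 4.3 and 9.7 without odor, and did not pass. The call at 0.01% TMT was lost without the mice numbered 3 (-1.10, adjusted p = 0.168). That at 0.1% TMT was lost without the mice numbered 2 (-0.99, adjusted p = 0.066) and without the litter as a block (-1.12, adjusted p = 1). The difference between odorants did not pass at 0.01% (0.67, adjusted p = 0.921) or at 0.1% (1.27, unadjusted p = 0.0311, adjusted p = 1), where 0% and 0.46% of all ORs passed.

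Olfr1283 (MOR248-19, ENSMUSG00000109322.2, chromosome 2, 111366790 to 111370063, plus strand) was lower at 100% TMT. It had 11.0, 43.0 and 52.4 normalized counts at 100% TMT, against 30.4, 113.6 and 84.5 without odor, lower in 3 of 3 litters though the groups overlapped (log2 fold change -1.20 ± 0.34, adjusted p = 0.00538). At 1% TMT it had 41.1, 112.9 and 73.3 against the same no odor mice. The 100% group was below the 1% group in the joint fit of the TMT libraries (-1.13 ± 0.32, adjusted p = 0.0114), a comparison in which 1.75% of all ORs were lower and 6.34% higher at 100% TMT. It was the only receptor of the 35 to pass there with all mice and the block. Without the block Olfr1283 did not pass (adjusted p = 0.407) and Olfr1287, its relative at 96.7% coding identity, did, with 6.9, 4.2 and 9.8 normalized counts at 100% TMT, against 0, 0 and 0 at 1% TMT. The call at 100% TMT missed the threshold with DESeq2's Wald test (-1.18, adjusted p = 0.0524), without the block (-1.14, adjusted p = 0.0838), and without the mice numbered 1 (-1.05, adjusted p = 0.0642) or 2 (-1.03, adjusted p = 0.213). Reads of Olfr1283 are shared in part with its neighbor Olfr1280, which has 15.96% of the 50-base stretches. Olfr1287, with 60 counts over all pS6-IP-Seq libraries, shares 22.32% of its own 50-base stretches with Olfr1283. Whether the division of shared reads moved their counts was not tested.

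**Figure D4:**
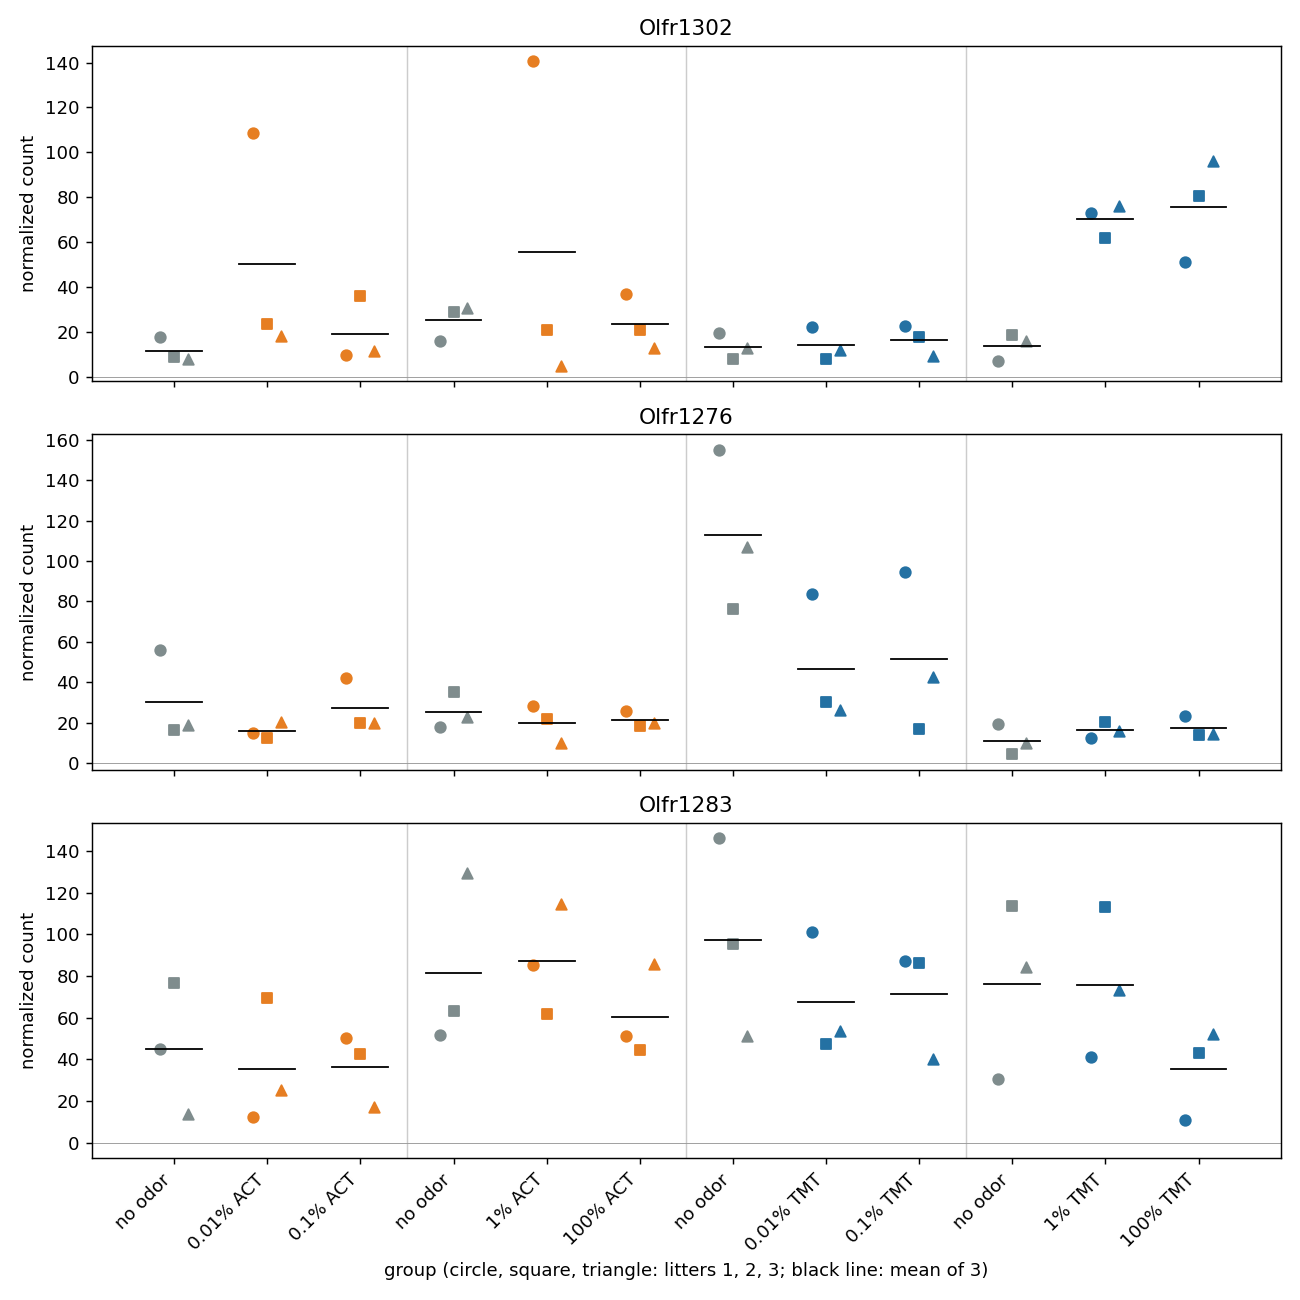
Normalized counts of Olfr1302, Olfr1276 and Olfr1283 in each of the 36 pS6-IP-Seq libraries, in blocks of no odor mice and the 2 odor groups set against them; the marker shape gives the litter and the line the mean of 3. Olfr1302 lies between 51.0 and 96.3 at 1% and 100% TMT, Olfr1276 is highest in the no odor mice of the low TMT block, and 1 mouse each at 0.01% and 1% ACT carries the high Olfr1302 values.

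The receptors with the smallest unadjusted p in the other ACT comparisons show how far the responses went there. At 0.1% ACT it was Olfr1278, with 30.5, 24.5 and 17.6 normalized counts, against 16.1, 16.7 and 5.8 without odor (log2 fold change 0.98 ± 0.40, unadjusted p = 0.0265, adjusted p = 1). At 1% ACT it was Olfr1303, with 29.2, 18.2 and 26.9, against 37.0, 59.1 and 44.4 without odor (-0.94 ± 0.36, unadjusted p = 0.00975, adjusted p = 0.295), and these groups did not overlap. At 100% ACT it was Olfr1282, with raw counts of 0, 0 and 0, against 6, 0 and 9 without odor (unadjusted p = 0.0151, adjusted p = 0.21). Among the larger folds in the heat map that did not pass, Olfr1314 had 4.3, 3.9 and 8.2 normalized counts at 100% ACT, against 1.6, 0 and 1.3 without odor (unadjusted p = 0.089).

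Neighboring concentrations of 1 odorant and the odorants at matched concentrations were compared over the same receptors. None of the 35 passed when 0.1% ACT was set against 0.01%, 100% ACT against 1%, or 0.1% TMT against 0.01%, where 0%, 0% and 0.46% of all ORs passed. At an unadjusted p below 0.05 there were 4, 1 and 0 of the 35 receptors, against 6.07, 12.7 and 3.68% of all ORs. The difference between ACT and TMT responses passed for none of the 35 at the 4 matched concentrations with all mice included. At an unadjusted p below 0.05 there were 1, 1, 1 and 2 of them from the lowest to the highest concentration, against 4.69, 3.95, 4.6 and 10.8% of all ORs. A p above the threshold does not show that the responses were alike.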

How the data were processed

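STAR alignment and RSEM quantification by the authors used GRCm38 with an extended OR annotation. The deposited tables hold RSEM expected counts of intact ORs, already rounded to whole numbers, and columns of the authors' own edgeR comparisons, which were not used. The extraction text of the mucosa samples describes the pull-down, and the paper's total RNA protocol was followed. Receptors and lists were chosen with earlier results of these data known. Counts were tested per comparison with edgeR 4.0.16 (R 4.3.3; TMM over ORs, glmQLFit robust, glmQLFTest, replicate number as a block, no count filter) and Benjamini-Hochberg adjusted over all ORs, with a threshold of 0.05. SEs were derived from the F statistic. Concentrations of 1 odorant were compared in a joint fit, and odorants in a fit of all 36 libraries. Scripts were tested on simulated data. The litter block of the pS6-IP-Seq libraries follows the paper, which used littermates for each replicate. The median correlation of deviations was small for the same litter, at 0.098, 0.147, 0.12 and 0.07 in the low ACT, high ACT, low TMT and high TMT sets. The lowest same-litter values there were -0.036, 0.053, 0.04 and -0.073. For different litters the medians were -0.035, -0.072, -0.054 and -0.036. Deviations were taken from means of 3 libraries, which ties the values for different litters to those for the same litter. They are therefore no separate check of the pairing. Named in full are receptors that passed, the smallest p per comparison and the 4 largest zonal changes. Alternatives were DESeq2 1.42.0 size factors and Wald test, total-count scaling, edgeR's likelihood ratio test, no block, a mean of at least 10 counts, and each replicate left out. GENCODE M21 and RefSeq tables of GRCm38 gave positions and names. OR counts per library limit precision. The study gives 3 mice for the mucosa libraries and does not say whether same-numbered dorsal and ventral libraries share a mouse.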

Additional observations from a re-analysis of the deposited data

How the results depend on the processing

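Where some of the 35 receptors had passed, 44 of 53 recomputed counts stayed within 1.5 times. Where none had, 90 of 94 stayed at 0, which shows no stability of a call. Counts given as reported are those of the main fit used here, not those of the study. At 100% ACT the count was 1 with edgeR's likelihood ratio test (Olfr1282, adjusted p = 0.00609) and 0 as reported. At 0.1% TMT it was 0 without the replicate block, and at 100% TMT it was 1 with DESeq2's Wald test and 1 without the replicate block. With each replicate left out in turn, the counts were 0 to 1 at 0.01% TMT, 0 to 1 at 0.1% TMT, 1 to 2 at 100% TMT, 0 to 1 for 100% against 1% ACT (Olfr1318 without replicate 1), 0 to 3 for 100% against 1% TMT (Olfr1280, Olfr1281 and Olfr1310, not Olfr1283, without replicate 1), and 0 to 1 for ACT minus TMT at 1% and at 100% (Olfr1302). The number higher in ventral mucosa was 33 with no replicate block and 21 to 26 with a replicate left out of both mucosae. Same-numbered mucosa libraries had a median correlation of deviations of -0.308. Without the replicate block, the 1 receptor passing for 100% against 1% TMT was Olfr1287, and Olfr1283 at 100% against 1% TMT was -1.11 (adjusted p = 0.407); without replicates 1 and 2 in turn it was -0.91 and -0.93 (adjusted p = 0.126 and 0.202). Signs turned only in differences that had not passed: Olfr1276 for 0.1% against 0.01% TMT (-0.20 without replicate 3, up to 0.40 without replicate 2) and for ACT minus TMT at 0.01% (-0.03 without replicate 3), and Olfr1302 for 100% against 1% TMT (-0.01 and -0.03 without replicates 2 and 3, 0.38 without replicate 1). Counts over all ORs also moved by over 1.5 times. At 0.01% ACT 0 passed as reported, 2 with DESeq2's Wald test, 3 with the likelihood ratio test and 4 without replicate 1. At 0.1% ACT the count was 7 as reported, 11 with total-count scaling, 4 with the count filter, and 0, 0 and 12 without replicates 1 to 3. At 1% ACT it was 18 as reported, 3 with the Wald test, 10 with the likelihood ratio test, 2 without the block, 5 with the count filter and 0 without replicate 2. At 100% ACT it was 0 as reported, 10 with DESeq2 size factors, 23 with the Wald test, 43 with the likelihood ratio test, 7 without the block, and 87, 15 and 5 without replicates 1 to 3. Under TMT it was 5 as reported and 2 without replicate 3 at 0.01%, 22 as reported and 11 without the block or replicate 2 at 0.1%, and 162 as reported and 98 without replicate 3 at 100%. Between concentrations it was 0 as reported and 2 with the Wald test for 0.1% against 0.01% ACT, 0 as reported, 19 with the Wald test and 64 without replicate 1 for 100% against 1% ACT, and 5 as reported and 2, 3 and 10 without replicates 1 to 3 for 0.1% against 0.01% TMT. For ACT minus TMT it was 5 as reported, 1 without the block, 8 without replicate 1 and 0 without replicate 2 at 0.1%; 0 as reported, 2 with the Wald test, 2 with the count filter and 25 without replicate 1 at 1%; and 0 as reported, 14 with the Wald test, 1 without the block and 61 without replicate 1 at 100%. The cause was not tested.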
